A study of Mus musculus with 2 samples.

Results

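Retinoic acid is made and removed by enzymes and read by nuclear receptors, and the 10 mouse genes described here cover each of those steps, out of 21938 protein-coding genes of GENCODE M21. They are 4 synthesis genes (Rdh10, Aldh1a1, Aldh1a2 and Aldh1a3), 3 breakdown genes (Cyp26a1, Cyp26b1 and Cyp26c1) and 3 receptor genes (Rara, Rarb and Rarg). They were chosen by name, not by any measured value, though with earlier results of these data known. Each was described over its gene body with 50 kb to each side, called its window. Open chromatin was mapped by DNase-seq, which finds DNA that the nuclease DNase I can cut, in 2 biological replicates of whole B6NCrl mouse embryos at 10.5 days, with male and female embryos pooled. Both replicates form 1 group with no treated or mutant samples, so the comparisons are between replicates and between genes, without a p-value. The authors deposited peaks 150 bp wide, each with a strength score whose definition the files do not give, and broader hotspots with the −log10 of a q-value. A whole embryo is a mixture of cell types, and fewer cells with an open site cannot be told apart from a site that is less open in each cell.

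Retinol is oxidised to retinaldehyde, chiefly by Rdh10 in the embryo, and retinaldehyde is oxidised to retinoic acid by the Aldh1a enzymes. The Cyp26 enzymes of the cytochrome P450 family oxidise retinoic acid to forms that are cleared, which shapes its gradients in the hindbrain, limb bud and tail bud. The receptors encoded by Rara, Rarb and Rarg pair with retinoid X receptors on direct repeats of a hexamer close to AGGTCA, and Rarb and Cyp26a1 are textbook targets of the receptors through repeats spaced by 5 bases.

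Such repeats were looked for in the windows and are shown first because the receptors are known to bind them and because members are among their known targets. A repeat was a pair of the hexamers AGGTCA or AGTTCA or GGGTCA or GGTTCA on the same strand, on either strand of the genome, with 5, 2 or 1 bases between them. The sequences are from the RefSeq assembly GRCm38.p6, with the same chromosomes as mm10, and are written 5′ to 3′ with the hexamers in capitals. The 5 repeats spaced by 5 bases that lay within 2 kb of a start of a member were as follows.
Rarb, chr14:16575513-16575529, minus strand: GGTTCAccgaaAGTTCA
Cyp26a1 distal, chr19:37695909-37695925, plus strand: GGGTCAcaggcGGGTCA
Cyp26a1 proximal, chr19:37697776-37697792, minus strand: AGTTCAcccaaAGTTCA
Rara, chr11:98960008-98960024, plus strand: AGTTCAgcaagAGTTCA
Rarg, chr15:102250817-102250833, minus strand: GGTTCAaagtgAGGTCA
The Rarb repeat lay 14 to 30 bases after an annotated start, in an exon that is annotated as untranslated there. The Cyp26a1 repeats lay 1889 to 1873 and 22 to 6 bases before its first start, and were intergenic. The Rara repeat lay 404 to 388 bases before the start of transcript Rara-202, and the Rarg repeat 487 to 471 bases before that of Rarg-206. A match is a description of the letters and not evidence of binding.

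Of these 5, the distal Cyp26a1 repeat and the Rara repeat lay inside a peak of each replicate. The 150 bases of the replicate 1 peak are shown for both, read on the strand of the gene, with the hexamers of the repeat in capitals.
Cyp26a1 distal element, chr19:37695876-37696025, plus strand: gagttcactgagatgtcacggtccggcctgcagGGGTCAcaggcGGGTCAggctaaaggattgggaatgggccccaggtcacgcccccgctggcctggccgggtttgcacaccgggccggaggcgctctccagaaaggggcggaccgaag
Rara element, chr11:98959956-98960105, plus strand: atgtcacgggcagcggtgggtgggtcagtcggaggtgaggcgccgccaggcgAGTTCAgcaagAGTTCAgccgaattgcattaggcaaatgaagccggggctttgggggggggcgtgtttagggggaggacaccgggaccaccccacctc
The Cyp26a1 element had a strength of 62 in replicate 1 and 84 in replicate 2. The Rara element had 65 and 78. The Rarb repeat lay inside the strongest Rarb peak of replicate 2, with a strength of 132, while the replicate 1 peak there, of strength 120, overlapped it without covering all of it. A hotspot with the highest value, 100, covered the Rarb repeat in both replicates. The hotspots over the distal Cyp26a1 repeat had 3.53 in replicate 1 and 100 in replicate 2, and those over the Rara repeat 2.79 and 6.

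The proximal Cyp26a1 repeat lay in no peak, 44 bp from the nearest peak of replicate 1 and 24 bp from that of replicate 2. A hotspot of value 100 covered it in replicate 2 and none did in replicate 1. The 150 bases before the first Cyp26a1 start are shown because they hold it. It reads on the minus strand, so the capitals here are its reverse complement.
Cyp26a1 proximal promoter, chr19:37697648-37697797, plus strand: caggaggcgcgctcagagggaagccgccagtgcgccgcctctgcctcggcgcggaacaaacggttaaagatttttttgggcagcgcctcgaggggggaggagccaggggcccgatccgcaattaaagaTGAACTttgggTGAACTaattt
The Rarg repeat lay 1152 and 1352 bp from the nearest peaks and in no hotspot. The other 6 repeats spaced by 5 bases, of 11 in all windows, lay at 2265 bp or more from any peak and in no hotspot. The windows thus held 3 of 11 copies (27.3%) in a hotspot of both replicates, beside 599 of 9284 copies (6.45%) on all nuclear chromosomes. All 3 lay within 2 kb of a start of a member. The copies of the genome were not matched for distance to a start, so the shares are not like for like.

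Over the 186 peaks shared by both replicates in the windows, 2 (1.08%) held a repeat spaced by 5 bases, beside 0.283% of all 152091 shared peaks. Another 2 of the 186 held a repeat spaced by 1 base and none held a repeat spaced by 2, beside 0.906% of all shared peaks with either kind. With 2 peaks of each kind, these shares rest on very few copies. Those spaced by 1 base were in intergenic DNA beyond Aldh1a2, in a peak of 38 and 45, and in an intron of Rarb, in a peak of 37 and 35.
Aldh1a2, chr9:71308317-71308329, plus strand: AGGTCAgAGGTCA
Rarb, chr14:16677128-16677140, minus strand: GGGTCAaAGTTCA

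At the level of promoters, 8 of the 10 genes had a peak within 1 kb of an annotated transcription start in both replicates, beside 69.7% of all protein-coding genes. Aldh1a1 and Cyp26c1 had such a peak in replicate 2 only, as had 2.18% of all protein-coding genes. Taking the strongest peak over all annotated starts of a gene, the receptor promoters had the highest mean strengths of the 10. Their strengths were 134 and 132 for Rara in replicates 1 and 2 (mean 133 ± 1.41, SD, n = 2), 120 and 132 for Rarb (126 ± 8.49) and 120 and 117 for Rarg (118.5 ± 2.12). The medians over all open promoters were 109 and 118. By mean strength, 89.6% of open protein-coding genes had a weaker promoter than Rara, 74.0% than Rarb and 58.5% than Rarg. Breakdown and synthesis promoters were weaker than most, apart from Rdh10 (116.5 ± 3.54), whose strongest promoter peak lay nearer to the start of a neighbour. Rarg and Rdh10 differed by less than the SD of Rdh10. Each receptor had 7 distinct annotated starts, against 1 to 5 for the other genes. At the first start alone, Rdh10 (114 and 119) and Aldh1a2 (79 and 99) were above Rarg (78 and 85). Rara had 65 and 75 there and Rarb no peak, and the other synthesis and breakdown genes had lower means than Rara.

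**Figure D1:**
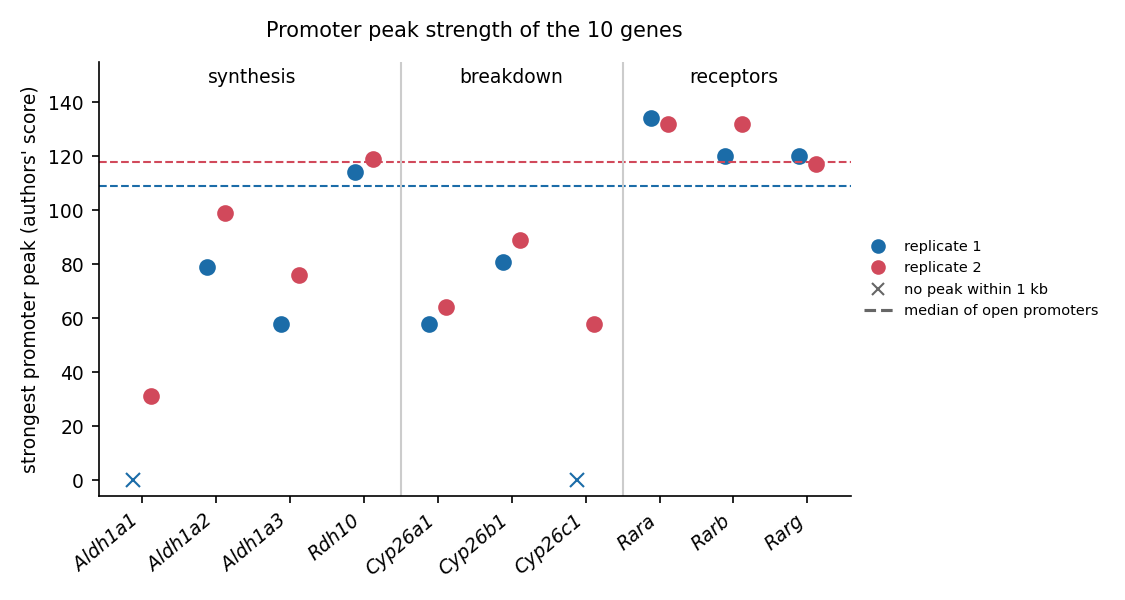
Strength score of the strongest peak within 1 kb of any annotated start, for each gene and replicate; crosses mark no peak and dashed lines the medians over all open promoters (109 and 118). The receptors lie near or above the medians, and Aldh1a1 and Cyp26c1 have no promoter peak in replicate 1.

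Among the synthesis genes, Aldh1a2 (chr9:71215789-71296243, plus strand), which encodes the main retinaldehyde dehydrogenase of the trunk mesoderm, had promoter strengths of 79 and 99, a mean of 89 ± 14.1 (SD, n = 2). Aldh1a3 (chr7:66390890-66427517, minus strand), known from the eye and nose, had 58 and 76, a mean of 67 ± 12.7 (SD, n = 2). By mean strength 24.2% and 12.4% of open genes were weaker. Aldh1a2 has a single annotated start, and a run of 6 shared peaks lay between 0.48 kb before it and 2.12 kb after it. Peaks over 1 kb from every protein-coding start are called distal. Within the run, the peak at 1.64 kb, in the first intron, had 61 and 90, and it is shown as the strongest distal shared peak among those nearest to the Aldh1a2 start. Stronger distal peaks in the window lay 26.6 kb upstream, with 73 and 106, and 27.0 kb upstream, with 77 and 83, in intergenic DNA where the start of Aqp9 was nearer.
Aldh1a2 intron element, chr9:71217356-71217505, plus strand: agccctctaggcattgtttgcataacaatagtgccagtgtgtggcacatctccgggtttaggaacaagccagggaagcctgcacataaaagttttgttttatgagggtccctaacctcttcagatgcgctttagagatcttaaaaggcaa
All 6 peaks of the run were stronger in replicate 2, as was the median pair of the genome, by 0.26 on the log2 scale, and the one at 0.44 kb had 39 and 81. Further in, the Aldh1a2 introns held a pair of peaks at 25.9 and 26.3 kb, with 65 and 71 for the first and 45 and 64 for the second. The window held 23 shared peaks, or 12.7 per 100 kb, more than 73.4% of protein-coding genes.

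Among peaks nearest to an Aldh1a3 start, the strongest distal one lay upstream, in intergenic DNA 22.7 kb before its first start, with 94 and 105, above its own promoter in both replicates. It had shared neighbours at 23.0 kb upstream, with 68 and 91, and at 24.6 kb upstream, with 65 and 81. Its sequence is shown because it is the strongest shared peak among those nearest to a synthesis gene's own start.
Aldh1a3 upstream element, chr7:66450116-66450265, minus strand: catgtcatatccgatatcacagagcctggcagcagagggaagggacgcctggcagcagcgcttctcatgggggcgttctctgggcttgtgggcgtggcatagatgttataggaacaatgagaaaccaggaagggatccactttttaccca
The internal starts of Aldh1a3, at 8.28 and 21.5 kb, had no peak in either replicate. A group of strong peaks beyond the 3′ end of Aldh1a3 lay nearer to the start of its neighbour Lrrk1, and the strongest distal peak among them had 101 and 105. The window held 17 shared peaks, of which 9 were nearest to a start of Aldh1a3.

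Rdh10 (chr1:16105774-16133734, plus strand), the retinol dehydrogenase, had its strongest peak within 1 kb of the start at 114 and 119. That peak lay 0.98 kb upstream of Rdh10 and was nearer to the start of Rpl7, a ribosomal protein gene on the other side. The peak at the Rdh10 start itself, with its middle 37 bases inside the gene, had 69 and 96. The strongest distal element was intronic, 22.1 kb after the start, with 56 and 73. Of the 7 shared peaks in its window, 3 were nearest to Rdh10 starts. The window held 5.47 shared peaks per 100 kb, and 29.7% of protein-coding genes had fewer.

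Aldh1a1 (chr19:20492715-20643465, plus strand), known from the dorsal eye and midbrain, was the least accessible. The starts at its 5′ end had no peak in either replicate, and an internal start 109 kb downstream had a peak of 31 in replicate 2 only. Its window held 10 shared peaks over 251 kb, or 3.99 per 100 kb, and 22.8% of protein-coding genes had fewer. The strongest, with 74 and 95, overlapped a coding exon 142 kb after the first start. The next was intronic at 14.4 kb, with 52 and 68. Its close paralogue Aldh1a7 reaches the edge of the window, and how the authors placed reads that match both genes is not known here. Hotspots covered 1.31% and 1.88% of the window, against medians over all gene windows of 3.50% and 4.76%.

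**Figure D2:**
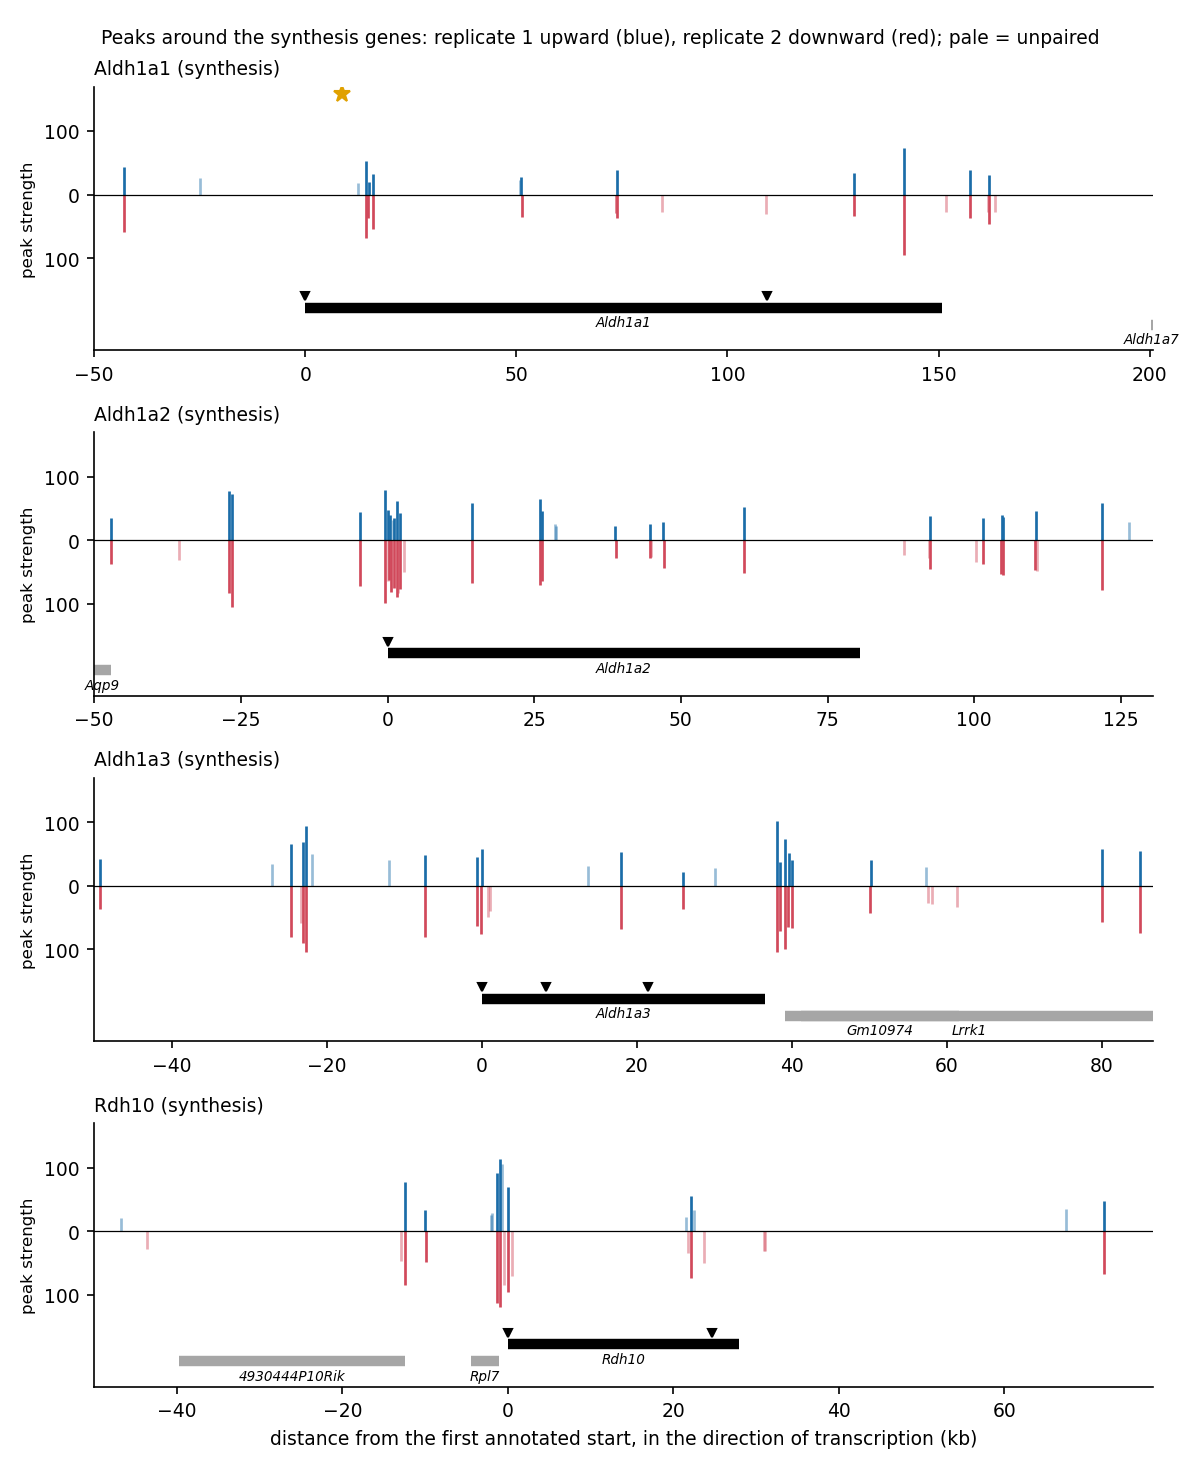
Peaks in the windows of the synthesis genes, by distance in kb from the first annotated start along the direction of transcription; line height is the strength score, with replicate 1 upward and replicate 2 downward, and paler lines are peaks without a partner in the other replicate. Black bars are the members, grey bars other protein-coding genes, triangles annotated starts and the star a repeat spaced by 5 bases; Aldh1a1 has sparse peaks and none at its first start, while Aldh1a2 has a run at its start.

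The breakdown genes differed most between the replicates. Their windows held 40 peaks in replicate 1 and 76 in replicate 2, a ratio of 1.90, beside 1.14 for the synthesis genes, 1.18 for the receptors and 1.10 for all peaks. They shared 34 peaks, which were 85.0% of the replicate 1 peaks and 44.7% of the replicate 2 peaks. Over all nuclear peaks these shares were 73.1% and 66.3%. Cyp26a1 (chr19:37697798-37701536, plus strand) and Cyp26c1 (chr19:37685581-37693398, plus strand) are neighbours on chromosome 19 and their windows overlap, so their counts are largely the same peaks. Cyp26a1 had 14 peaks in replicate 1 and 37 in replicate 2, and Cyp26c1 had 15 and 39. These 2 of the 10 windows had at least 2 times as many peaks in replicate 2, as had 5.16% of all gene windows with a peak in replicate 1.

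Of the 25 peaks of replicate 2 without a partner in the Cyp26a1 window, 16 lay in the 16 kb from the start of Cyp26c1 to the end of Cyp26a1 (chr19:37685581-37701536). In this stretch replicate 1 had 6 peaks, of strength 51 to 85, and each had a partner in replicate 2. Replicate 2 had those 6 and the 16 without a partner, of strength 35 to 64. Hotspots covered 10.2% of the stretch in replicate 1, in 6 pieces, and 60.4% in replicate 2, in 15 pieces. Over the whole Cyp26a1 window the coverage was 3.90% and 14.0%, and 1.28% of gene windows had a coverage ratio as high. In strength, over the 34 shared peaks of the breakdown genes the median strength was 53 and 71, and the log2 ratio of replicate 2 to replicate 1 differed from that of all pairs by -0.04. Replicate 2 also had more peaks over the genome, 229568 against 207946, and the part of that in the difference at the Cyp26 genes was not tested.

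The Cyp26a1 promoter peak, with its middle 113 bases after the first start, had 58 and 62, and the strongest peak within 1 kb of any of its starts had 58 and 64 (mean 61 ± 4.24, SD, n = 2). The 64 was of a separate peak of replicate 2, without a partner in replicate 1. By mean strength 9.97% of open genes had a weaker promoter, the lowest standing among the 8. Among peaks nearest to Cyp26a1 over 1 kb from a start, the strongest by mean lay 4.71 kb upstream, inside an exon of Cyp26c1. It had 69 and 79 (mean 74). Between it and the start lay the element with the distal repeat, at 62 and 84 (mean 73), which was the stronger in replicate 2. A second shared peak lay 1.37 kb upstream, at 51 and 77. Shared peaks also lay 6.33 kb after the start, with 61 and 73, and far downstream at 33.4 kb, with 37 in both replicates. Cyp26c1 had no peak at its start in replicate 1 and one of 58, with 3 more within 1 kb, in replicate 2. Inside Cyp26c1, exonic peaks at 1.55 kb, with 58 and 73, and at 5.39 kb, with 85 and 93, were shared. Open sites in exons of Cyp26c1 were thus present in both replicates while its start was called open in replicate 2 only. The strongest shared peak upstream of Cyp26c1 was in an intron of Exoc6, 28.9 kb from the start, with 81 and 91.

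Cyp26b1 (chr6:84571414-84593908, minus strand), which protects limb and gonad from retinoic acid, had 25 peaks in replicate 1, 37 in replicate 2 and 21 shared, and all 21 were nearest to a start of Cyp26b1. It had 17.1 shared peaks per 100 kb, and 87.8% of protein-coding genes had fewer. Its first start group had 48 and 77, in a peak at the edge of the 1 kb limit, and the start group 5.27 kb downstream had 81 and 89 (mean 85 ± 5.66, SD, n = 2). The 81 and 89 were of separate peaks, so this SD is not the spread of 1 element. The shared peaks there had 81 and 86 for the first and 65 and 89 for the other. The strongest element was at neither start group. An intronic peak 3.48 kb after the first start, between the start groups, had 115 and 112, and a further intronic peak at 10.4 kb had 92 and 103. With a mean of 113.5, the first of these tied with an intronic peak of Rara as the strongest distal peak nearest to a member, and is shown for that reason. It holds none of the repeats searched.
Cyp26b1 intron element, chr6:84590356-84590505, minus strand: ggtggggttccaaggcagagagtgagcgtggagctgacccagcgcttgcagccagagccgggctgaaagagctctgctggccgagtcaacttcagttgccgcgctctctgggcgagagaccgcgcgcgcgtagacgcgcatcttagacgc
A shared peak in an intron of the neighbour Exoc6b, 47.0 kb upstream, had 77 and 83. Hotspots covered 5.78% and 11.97% of the window, and the widest hotspot was 961 bp in replicate 1 and 8456 bp in replicate 2.

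**Figure D3:**
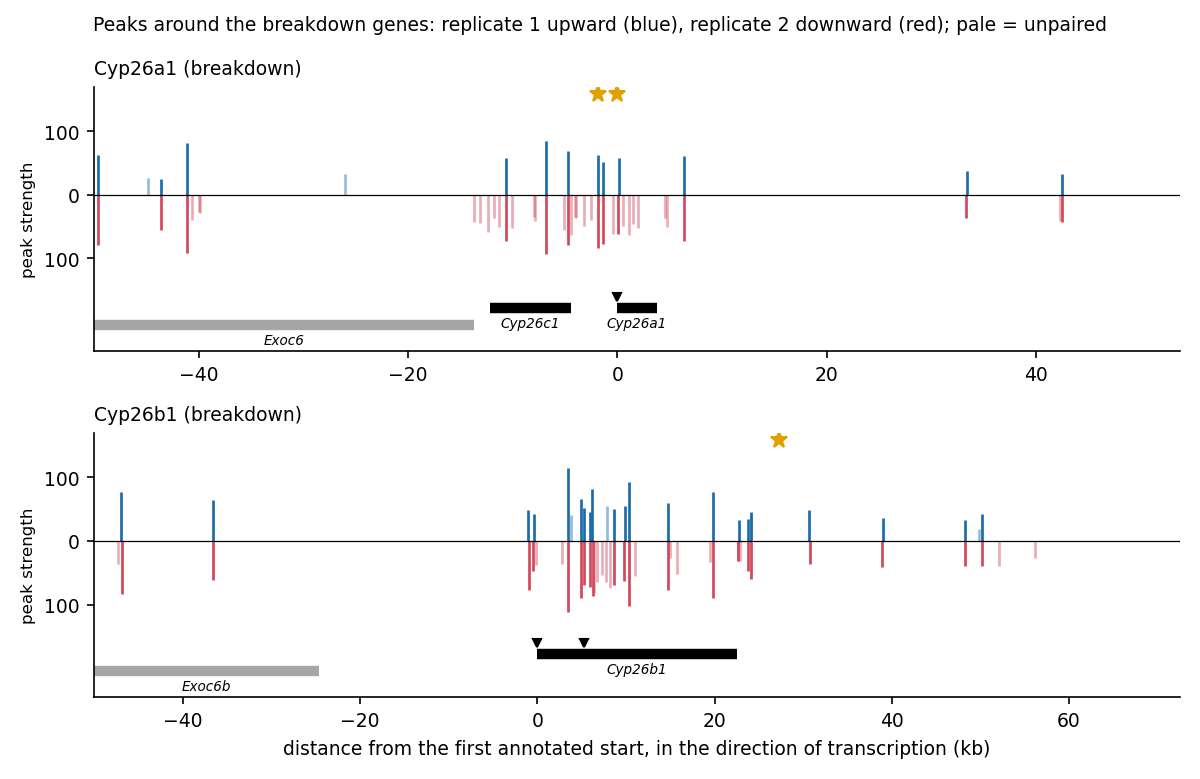
Peaks in the windows of Cyp26a1, with Cyp26c1 inside it, and of Cyp26b1, by distance in kb from the first start; line height is the strength score, replicate 1 upward and replicate 2 downward, paler lines are peaks without a partner, triangles mark starts and stars repeats spaced by 5 bases. Across Cyp26c1 and Cyp26a1 replicate 2 has 22 peaks and replicate 1 has 6.

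The receptors had 120 peaks in replicate 1, 142 in replicate 2 and 95 shared, with median strengths of 64 and 76 over the shared peaks, beside 49 and 61 over all shared peaks. By window the medians were 70 and 86 for Rara and 82.5 and 86 for Rarg. For Rarb they were 44 and 60, below those of all shared peaks. Of the 95 peaks, 28 were nearest to a start of a neighbouring gene. Rara (chr11:98927818-98974942, plus strand), the broadly expressed receptor, had the densest window of the 10 genes. It held 41 shared peaks, or 27.9 per 100 kb, and 98.7% of protein-coding genes had fewer per 100 kb. The window also holds Wipf2, Cdc6, Gjd3 and Top2a, and 25 of the 41 peaks were nearest to a start of Rara. Of 4 groups of Rara starts, 3 were open in both replicates. The first had 65 and 75, the group at 9.88 kb had 134 and 132, and the one at 32.6 kb had 104 and 112. The group at 11.9 kb had no peak in either. The start at 32.6 kb is that of Rara-202, and the element with the repeat spaced by 5 bases lay just upstream of it.

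The strongest distal element of Rara was intronic, 41.0 kb after the first start and 8.42 kb after that of Rara-202, with 108 and 119. A pair of motifs, chosen after the data were seen, was looked for in distal peaks: TGATTNAT, which HOX and PBX proteins bind together, and TGACAG, which MEIS proteins bind, each on both strands. Both occur in this element and are in capitals.
Rara intron element, chr11:98968756-98968905, plus strand: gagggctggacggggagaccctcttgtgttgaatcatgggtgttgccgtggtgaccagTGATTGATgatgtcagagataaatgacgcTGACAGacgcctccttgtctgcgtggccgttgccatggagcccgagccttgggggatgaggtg
TGATTNAT occurred in 4 of 141 distal shared peaks of the windows (2.84%), beside 4.04% of 118001 distal shared peaks of the genome. TGACAG occurred in 25 (17.7%), beside 15.04%. The core motif of CTCF, a protein that bounds chromatin loops, occurred in 7 (4.96%), beside 5.38%, and 3 of these were in the Rara window, with strengths of 64 and 86, 89 and 91, and 93 and 94. On 141 peaks these shares rest on few matches.

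Rarb (chr14:16430839-16819156, minus strand), whose transcription is known to rise with retinoic acid, spans 388 kb. Its first start group, at the 5′ end, had no peak in either replicate. The internal group 243 kb downstream, which includes transcript Rarb-201 and carries the repeat spaced by 5 bases, had 120 and 132. From that group, shared peaks continued to 5.07 kb past its last start, at 62 and 88, 48 and 85, 57 and 82, 50 and 63, and 45 and 52. All were stronger in replicate 2. Introns held 29 of the 36 shared peaks. Between the start groups, the strongest distal element lay 85.4 kb after the first start, with 103 and 113. It is shown because it is stronger than any other distal peak of the gene, and the capitals mark a match to TGATTNAT on the other strand.
Rarb intron element, chr14:16733676-16733825, minus strand: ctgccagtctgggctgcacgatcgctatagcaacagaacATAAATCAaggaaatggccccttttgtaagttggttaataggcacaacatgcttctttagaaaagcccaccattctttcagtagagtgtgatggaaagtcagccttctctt
Intronic peaks at 216 kb, with 88 and 94, and at 264 kb, with 87 and 91, lay on either side of the internal start group. Per length the window was sparser than the median gene window, with 7.37 shared peaks per 100 kb, although in number 97.2% of genes had fewer.

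Rarg (chr15:102234938-102257517, minus strand), known from cartilage and the tail bud, had 6 groups of starts within 13.9 kb, of which 5 were open in both replicates. The first had 78 and 85, that of Rarg-206 had 87 and 69, and the group of Rarg-202, at 11.02 kb, had 120 and 117. The last pair, at 12.3 and 13.9 kb, had 46 and 70, and 54 and 67. Rarg-207, an annotated transcript without a coding sequence, had none. A block of shared peaks led from 8.51 kb to 11.3 kb after the first start, with 120 and 117 the highest and 40 and 70 the lowest. Among peaks nearest to a Rarg start, the strongest distal ones by mean strength were a tied pair, with 95 and 100 in a peak that overlapped an exon 18.1 kb after the first start and 94 and 101 in an intronic peak at 9.93 kb. A distal peak nearer to Itgb7, 32.9 kb after the first Rarg start, had 94 and 103. Of 18 shared peaks in the window, 11 were nearest to Rarg and the others to Csad, Zfp740, Itgb7, Mfsd5 or Espl1.

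**Figure D4:**
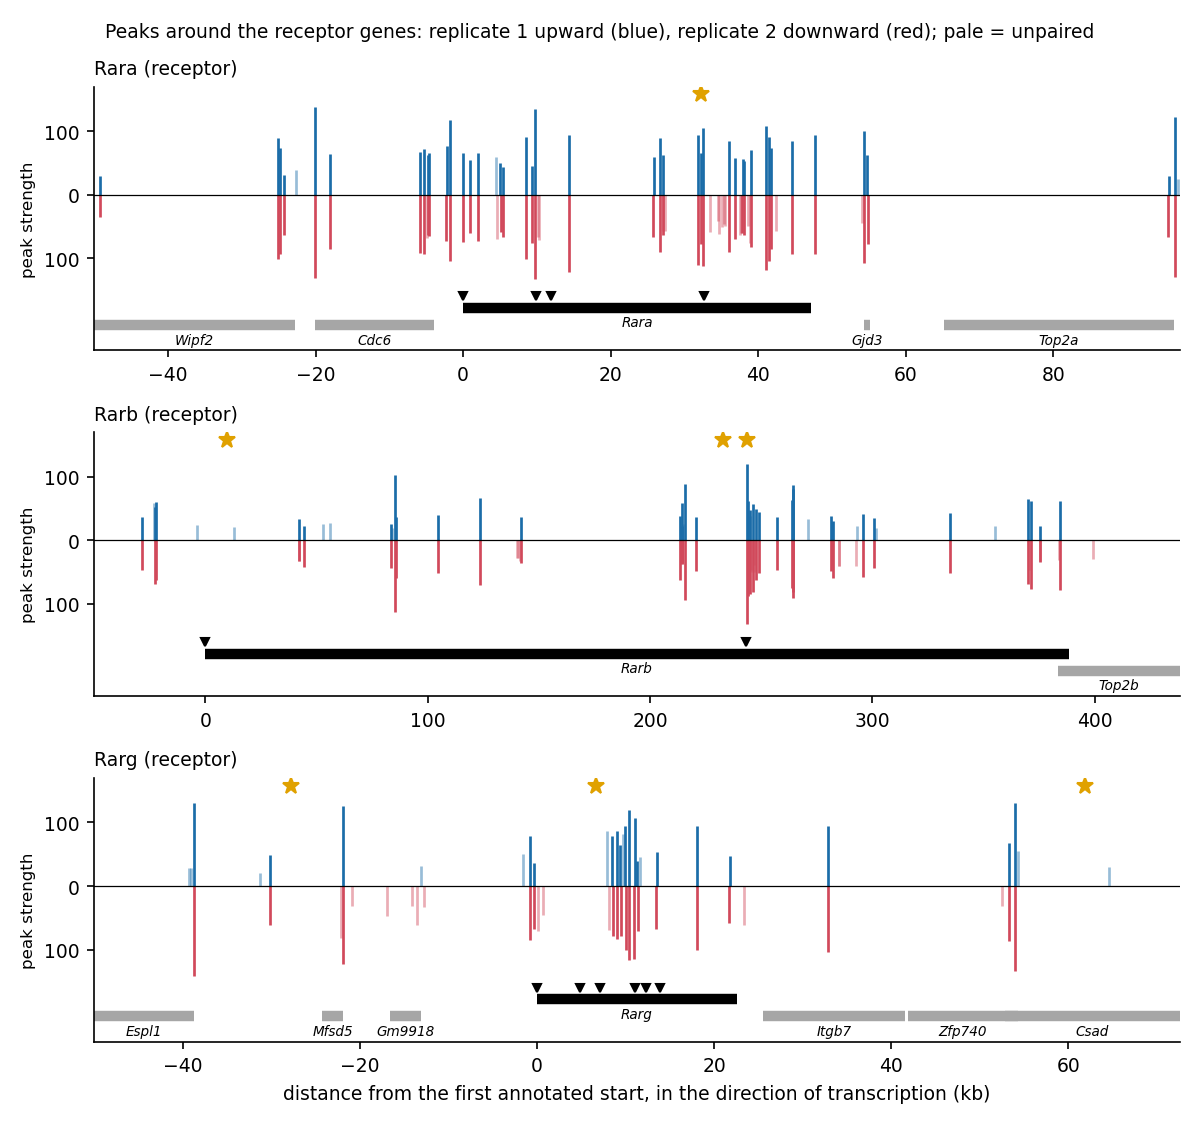
Peaks in the windows of the receptor genes, by distance in kb from the first start; line height is the strength score, replicate 1 upward and replicate 2 downward, paler lines are peaks without a partner, triangles mark starts and stars repeats spaced by 5 bases. The strongest peak nearest to a Rarb start lies at the internal start group, 243 kb from the first start, and no peak was called at the first start itself.

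Over all 10 genes the annotated starts fell into 24 groups, of which 15 were open in both replicates, 3 in replicate 2 only, 0 in replicate 1 only and 6 in neither. The shares over the start groups of all genes are not given here, so these counts are not read as particular to the members. Open in both meant a peak within 1 kb in each replicate, and at Rarg-206 these peaks did not overlap. The strength of a group was that of its strongest peak in each replicate. These strongest peaks were also separate at Cyp26a1, at the downstream group of Cyp26b1 and at the Rarg group at 12.3 kb. In those groups other peaks did overlap between the replicates. The 3 open in replicate 2 only were those of Cyp26c1, the internal start of Aldh1a1 and an internal start of Rdh10, with 50. The ratio of observed to expected CpG dinucleotides within 500 bp of the first start of a group had a median of 0.63 in the 15 open groups and 0.22 in the other 9. The ranges overlapped, from 0.22 upward in the open groups and up to 0.39 in the others. Over the first start of all protein-coding genes the median was 0.55. The closed first group of Rarb had 0.10 and its open internal group 0.60.

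Of the 186 shared peaks, 45 lay within 1 kb of a protein-coding start, 18 in exons, 83 in introns and 40 between genes. The distal share was 75.8%, beside 77.6% of all shared peaks. The nearest start was that of a member for 143 and of a neighbouring gene for 43. The latter were 28 of 95 shared peaks in receptor windows, 15 of 57 in synthesis windows and 0 of 34 in breakdown windows. The share over all gene windows is not given here. Hotspots of both replicates held 184 of the 186. Peaks and hotspots are readouts of the same libraries, and the share over all shared peaks is not given here, so this count is not particular to these windows. Members had more shared peaks per 100 kb than the median gene window (8.62) in 7 of 10 cases, all but Aldh1a1, Rdh10 and Rarb. Among the 7, the Cyp26a1 and Cyp26c1 windows hold largely the same peaks and are not separate cases. In hotspot coverage, Rara with 9.08% and 13.2% and Rarg with 7.67% and 10.4% were the highest in replicate 1, while in replicate 2 the Cyp26a1 and Cyp26c1 windows, with 14.0% each, were higher.

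**Figure D5:**
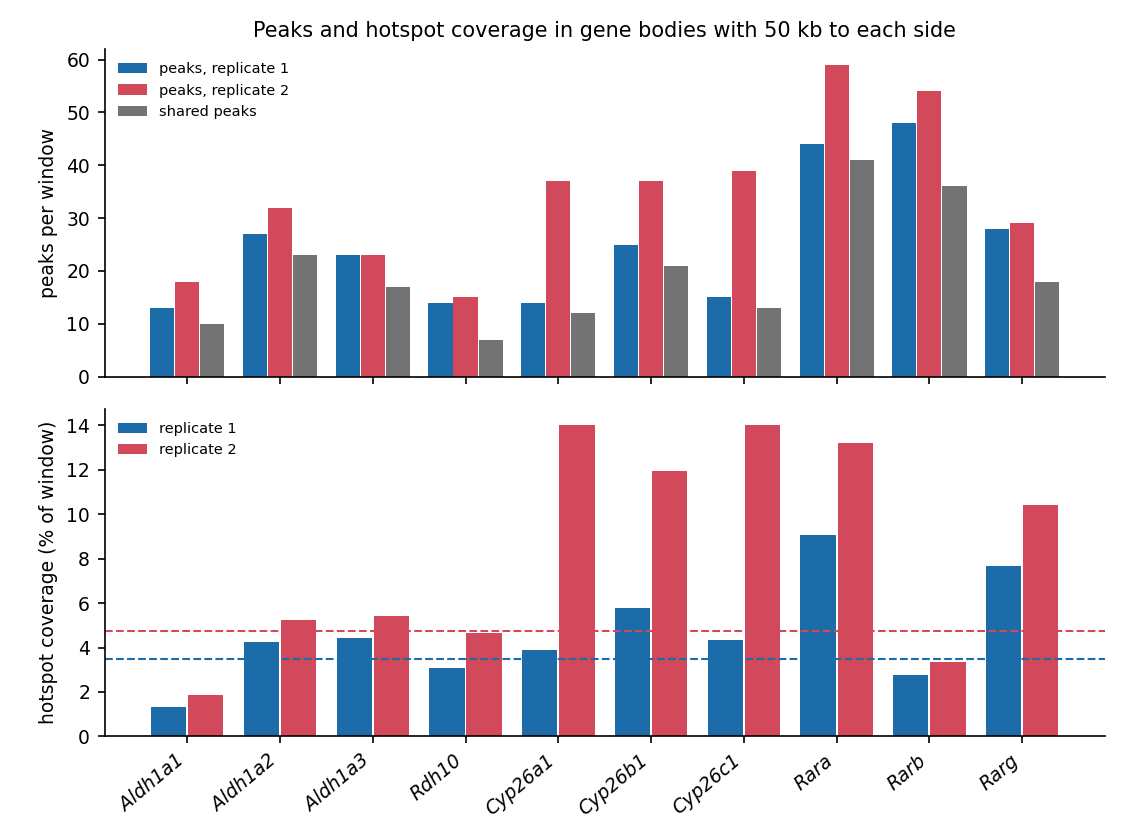
Upper bars give the number of peaks in each replicate and the number shared in each window, and lower bars the percent of each window covered by hotspots, with dashed lines at the medians over all protein-coding genes (3.50% and 4.76%). The replicates lie farthest apart at Cyp26a1 and Cyp26c1, with 14 against 37 and 15 against 39 peaks.

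Other genes of the pathway were counted from 3 lists. Of 18 genes for carrying, storing and converting retinol, 13 were open in both replicates, beside the 69.7% of all genes. Adh5 had 124 and 127, Rdh13 121 and 130, and Rdh14 118 and 121. Rpe65, Dhrs9, Adh1, Adh7 and Aldh8a1 had no promoter peak in either replicate. All 13 genes for retinoic acid carriers, partner receptors and cofactors were open in both, led by Ncoa2, a coactivator, with 129 and 134, Ppard with 130 and 129, and Rxrb, a retinoid X receptor, with 128 and 129. Of 19 genes known to respond to retinoic acid, 16 were open in both replicates. Crabp2, an intracellular carrier of retinoic acid, had 131 and 124, Nr2f1 117 and 134 and Meis1 120 and 127. Cdx1, with 44, and Fgf8, with 72, were open in replicate 2 only, and Stra8 in neither.

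The label of whole embryo was set against markers of the tissues that an embryo of this age holds. Because 69.7% of all protein-coding genes were open in both replicates, an open marker does not by itself show that its tissue was present. All 3 markers of neural tube, somites and limb bud were open in both replicates, as were both eye markers (Rax and Six6) and 2 of 3 for heart, endothelium and endoderm, where Hnf4a was open in neither. None of 3 red cell markers (Hbb-y, Hbb-bh1 and Gata1) was open in either, and of 4 extra-embryonic or maternal markers only Afp was, which the fetal liver also expresses, while Prl8a2, Prl6a1 and Gcm1 had no promoter peak in either replicate. Among these, Myh6, with 21, was open in replicate 2 only, and Cdh5, with 43, in replicate 1 only. Their part in the difference between replicates at the Cyp26 genes was not tested.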

How the data were processed

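The data were DNase-seq peaks and hotspots from 1 group of 2 biological replicates, called by the authors in each replicate on mm10, per the labels. For the aligner, the callers and the calling thresholds, names and values were not given in the sources used here. The deposited peaks carry a strength score, a whole number from 2 to 149 on nuclear chromosomes whose definition is not stated, so it was used as a level within a replicate and as a ratio relative to all pairs. The deposited hotspots carry the −log10 of a q-value, from 1.30 to 6 and then 100. No file gives library depth, which is unknown here.

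Repeated peak lines (28 and 47) were dropped, and peaks on nuclear chromosomes were kept, 207946 and 229568 with median strengths of 41 and 50. Of these, 2.76% and 3.69% overlapped the next peak. A shared peak was a pair, each the other's best overlap, of 1 bp or more. A peak belonged to a window by its middle. Starts, genes and exons came from GENCODE M21 (protein-coding genes for the background), and a promoter was open when a peak came within 1 kb of any start. Starts less than 1000 bp apart formed a group. Location was assigned in the order start, exon, intron, between genes. Sequences came from the RefSeq GRCm38.p6 genome. Python 3.11.15, numpy 2.4.6 and pandas 2.3.3 were used, and pairing, window counts, promoter peaks and the repeat search were tested on simulated data.

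No test was made, as the design holds 1 group. The members and all lists were chosen with earlier results of these data known. By rule, the text names every member with its promoter, its strongest distal peak among those nearest to its own starts and its counts, every shared peak with a repeat spaced by 5 bases, every start open in 1 replicate only, and in each of the 3 pathway lists the 3 strongest promoters and every gene not open in both. The rule does not cover the marker lists, whose named genes were chosen after their values were seen, nor other peaks named. The HOX-PBX, MEIS and CTCF motifs were added later. Some genes of the lists are not reported here and were left out of the counts.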

Additional observations from a re-analysis of the deposited data

How the results depend on the processing

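Of 37 alternatives tried on 8 results, 30 kept the value within 1.5 times or kept its direction and 7 did not. The count of 186 shared peaks was 280 with a flank of 100 kb and 104 in gene bodies alone, and the peaks of single replicates ranged from 237 to 306. The 4 shared peaks with any repeat became 2 with hexamers that begin with A and 9 with a flank of 100 kb, and ranged from 4 to 7 in single replicates. The promoter count of 8 was 7 at the 5′-most starts alone, without Rarb, and 9 within 2500 bp. Replicate 2 alone gave 10. The Cyp26a1 peak ratio of 2.64 was 4 with a flank of 25 kb, 1.89 with 100 kb and 2.11 over the stronger 50% of peaks, alternatives added after seeing the data. No paired analysis was possible because there is 1 group. With 2 replicates, an SD has a wide error, and library depth is unknown. The cause of these differences was not tested, apart from the flank, which sets how much DNA is counted.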
